A study of Homo sapiens with 12 samples.

Results

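Genes for proteins that the liver secretes into plasma were examined for binding of FoxK1, a forkhead transcription factor. The cells were HepG2, a line from a human liver carcinoma that serves as a model of hepatocytes. The 10 genes were ALB, AFP, TTR, TF, FGB, FGA, FGG, SERPINA1, AHSG and HP. They were taken from a fixed list of names, and a peak belonged to a gene when its summit lay within 5 kb of the transcription start set for that gene in build hg19. The rule itself uses no peak value. Every cell was serum-starved for 16 h. The insulin libraries came from cells that then received 100 nM insulin for 20 min (n = 3), and the untreated libraries from cells that received none (n = 3). The 6 immunoprecipitated libraries each have 1 peak list, and the 6 input libraries were not analysed here. HepG2 is a single tumour line, RNA was not measured in these samples, and the labels leave unsaid whether each replicate was its own culture, so p-values cover the spread among these 6 libraries, which may be technical.

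Forkhead factors bind DNA through a winged-helix domain that prefers words such as TGTTTAC. FoxK1 is known as a forkhead factor that insulin signalling moves into the nucleus, opposite to the FoxO factors, which insulin sends out of it. Plasma protein genes are among the most active genes of hepatocytes, and their promoters and enhancers are textbook binding places for the liver factors HNF1, HNF4A, C/EBP and the FOXA forkhead proteins. The comparison asks whether FoxK1 was found at these genes and whether insulin changed that.

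FoxK1 had a peak summit within 5 kb of all 10 starts in all 6 libraries, 3 after insulin and 3 without it. Across the genome, 4.81% of consecutive 10 kb windows on chromosomes 1 to 22 and X held a summit in all 6 libraries. These windows are not centred on promoters, so this share is a description of the genome and not a matched comparison. The 10 windows around the starts held 116 summits in all, in 31 merged regions of the 68127 that the 6 lists formed together. Merging joined peaks that shared at least 1 bp, and each merged region is called a site here. Of the 31 sites, 12 (38.7%) were called in all 6 libraries, against 23.3% of all regions. Another 13 were called in 2 to 5 libraries and 6 (19.4%) in 1 library, against 34.3% of all regions.

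**Figure D1:**
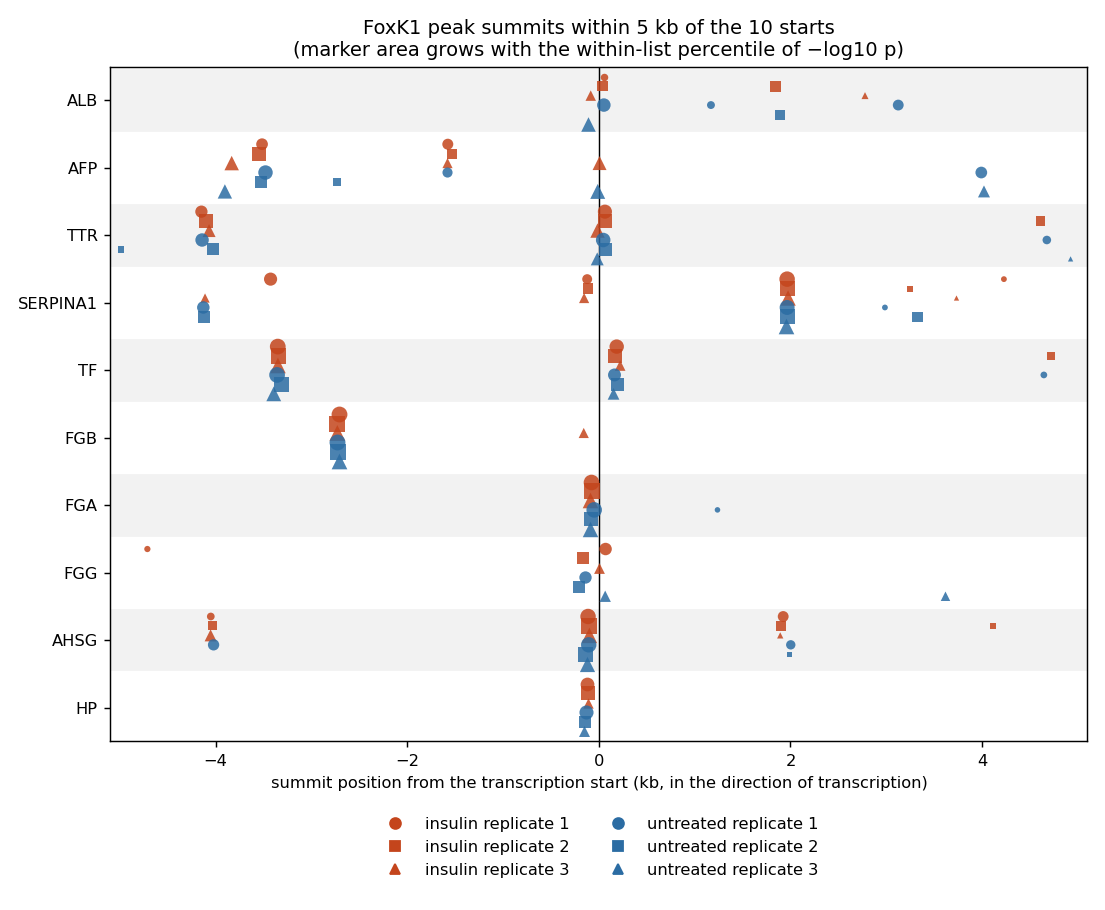
Peak summits within 5 kb of the 10 starts. The horizontal axis is the summit's distance from the start in kb, in the direction of transcription, each row is a gene and each marker is 1 peak, with the insulin libraries (red) above the untreated libraries (blue) and marker area growing with the peak's percentile of −log10 p in its own list. TTR, TF, FGA, FGG, AHSG and HP have a summit near the start in every library, while the strong FGB, TF and SERPINA1 summits stand 1957 to 3394 bp from it.

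The genes divided by where the strong site stood. In 6 genes, TTR, TF, FGA, FGG, AHSG and HP, every library had a summit within 250 bp of the start. FGB and TF had their strongest site upstream of the start. SERPINA1 had it 1957 to 1975 bp inside the gene from the start used here, while RefSeq lists a second start 2033 bp inside its first. ALB and AFP, the albumin pair, had no site at the start that was called in every library.

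Upstream promoter sequence is shown for 2 genes with a strong site at the start (FGA, AHSG) and for 2 without one (FGB, ALB). RefSeq promoter sequence (GRCh38.p14) was matched for 8 of the 10 genes by symbol. The lines below hold the 250 bases before each RefSeq start, 5′ to 3′ on the gene's own strand, with capitals on the forkhead word TGTTTAC, the variant TATTTAC, the variant TGTTTGC and the variant TATTTGC or their reverse complements. The FGA stretch is chr4:154590743-154590992, minus strand, the AHSG stretch is chr3:186612810-186613059, plus strand, the FGB stretch is chr4:154562730-154562979, plus strand, and the ALB stretch is chr4:73404037-73404286, plus strand.
FGA: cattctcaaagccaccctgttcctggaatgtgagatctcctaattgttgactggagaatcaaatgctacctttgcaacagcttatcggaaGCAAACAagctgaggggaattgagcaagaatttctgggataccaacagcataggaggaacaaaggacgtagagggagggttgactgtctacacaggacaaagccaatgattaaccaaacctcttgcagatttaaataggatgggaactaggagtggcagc
AHSG: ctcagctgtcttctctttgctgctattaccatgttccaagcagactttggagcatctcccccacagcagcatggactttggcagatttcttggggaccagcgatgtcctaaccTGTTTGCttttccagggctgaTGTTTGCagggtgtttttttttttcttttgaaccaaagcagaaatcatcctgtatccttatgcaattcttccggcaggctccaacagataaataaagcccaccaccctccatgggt
FGB: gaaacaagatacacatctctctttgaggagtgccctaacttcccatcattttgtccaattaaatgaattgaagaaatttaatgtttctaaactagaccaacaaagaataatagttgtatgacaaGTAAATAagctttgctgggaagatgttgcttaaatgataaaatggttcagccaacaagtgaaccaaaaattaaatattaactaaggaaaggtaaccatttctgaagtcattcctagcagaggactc
ALB: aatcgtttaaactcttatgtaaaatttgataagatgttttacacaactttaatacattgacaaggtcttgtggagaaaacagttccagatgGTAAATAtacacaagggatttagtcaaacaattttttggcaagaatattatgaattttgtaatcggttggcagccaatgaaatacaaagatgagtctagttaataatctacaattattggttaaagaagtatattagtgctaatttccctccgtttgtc

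The motif search covered the 300 bases from 250 before to 50 after each RefSeq start, on both strands. AHSG held TGTTTGC at 137 and at 116 bases before its start, and FGA held the reverse complement GCAAACA at 160 bases before its start. ALB and FGB held GTAAATA, the reverse complement of TATTTAC, at 159 and 126 bases before theirs. AFP held TATTTGC at 224 bases before the start, and the FGG promoter held none of the 4 words. TGTTTGC and TATTTGC were added to the search after the sequences had been seen. With the words TGTTTAC and TATTTAC alone, 2 of the 8 genes, ALB and FGB, held a word, in 3 of the 11 promoters of the 8 genes, and with all of the words 7 of the 11 promoters did. These 7 promoters had 32.7 to 57.3% GC, the members' other promoters 52 to 69.3%, and all promoters a median of 58.7%. The part of base composition was not tested. Among all 35116 promoters of the table, 3.42% held TGTTTAC, 2.67% TATTTAC, 3.89% TGTTTGC, 2.97% TATTTGC and 12.1% any of them. The C/EBP word TTGCNNAA, which was searched on both strands and overlapped a forkhead word in AFP, stood in 7 of the 11 promoters, those of ALB, AFP, FGA and AHSG, both of FGB and 1 of TF, against 10.5% of all promoters. The FGB promoters overlap one another, so their GTAAATA and C/EBP words are the same bases, counted for each promoter. A TATAAA box was found in AFP, against 11.5% of all promoters. The HNF1 consensus was found in none of the 8 genes, but only 2 of all 35116 promoters (0.00570%) held it. So rare a match would be missing from almost any small set of promoters. The search therefore cannot tell whether these genes have HNF1 sites. The RefSeq starts are on another build and need not be the same base as the hg19 starts, so summits were not placed within these letters. The words are also bound by other forkhead proteins, and a match is not a bound site.

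The strongest FoxK1 peak within 5 kb of any of the starts, by the median percentile over libraries, was at FGB, in the fibrinogen cluster. FGB, FGA and FGG encode the 3 chains of fibrinogen, the clotting precursor and acute-phase protein, and lie side by side on chromosome 4. The FGB start (155484132) and the FGG start (155533902) are 49770 bp apart, with the FGA start (155511918) between them. FGB is read towards FGA, and FGA and FGG are read in the opposite direction.

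At FGB the peak was not at the start but 2713 to 2736 bp upstream, in the site chr4:155480669-155482429. It ranked 729, 409 and 654 by −log10 p in insulin replicates 1, 2 and 3 and 446, 929 and 888 in untreated replicates 1, 2 and 3. These ranks place it at percentiles of 98.5, 99.1 and 97.6 with insulin and 99.0, 97.1 and 96.6 without it. The authors' deposited fold, which each library's own background sets, was 31.5, 36.6 and 20.5 after insulin and 21.7, 12.2 and 13.3 without it. Its summits agreed between libraries to within 23 bp, the closest agreement but 1 among the 12 sites called in all libraries. The FGB start itself had a summit, 158 bp upstream, in insulin replicate 3 alone (fold 4.37, percentile 34.1).

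FGA had its site at the start, chr4:155511511-155512357, with summits 49 to 90 bp upstream. Its percentile was 95.3, 95.8 and 94.8 with insulin and 94.1, 86.7 and 93.2 without it. Solved from the deposited fold and −log10 p, the summit held 118, 171 and 57 fragments in insulin replicates 1, 2 and 3 and 147, 75 and 53 in untreated replicates 1, 2 and 3. The folds were 19.1, 19.1 and 13.9 with insulin and 10.7, 6.55 and 9.72 without it. Fragment numbers move with depth, which is unknown, so they describe each library and cannot be compared between treatments.

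FGG had a weak site at its start and a strong one farther upstream. The start site, chr4:155533596-155534555, had percentiles of 56.7, 49.95 and 39.6 with insulin and 55.2, 62.6 and 45.02 without it. Its summits were scattered from 212 bp upstream to 70 bp downstream of the start. The strong site, chr4:155538107-155540226, had its main summit 5217 to 5377 bp upstream in every library, just outside the 5 kb limit, and counted only because insulin replicate 1 had a second, weak summit at 4713 bp (percentile 5.68). Its percentiles of 94.8 to 97.8 were close to those of the FGB upstream site.

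**Figure D2:**
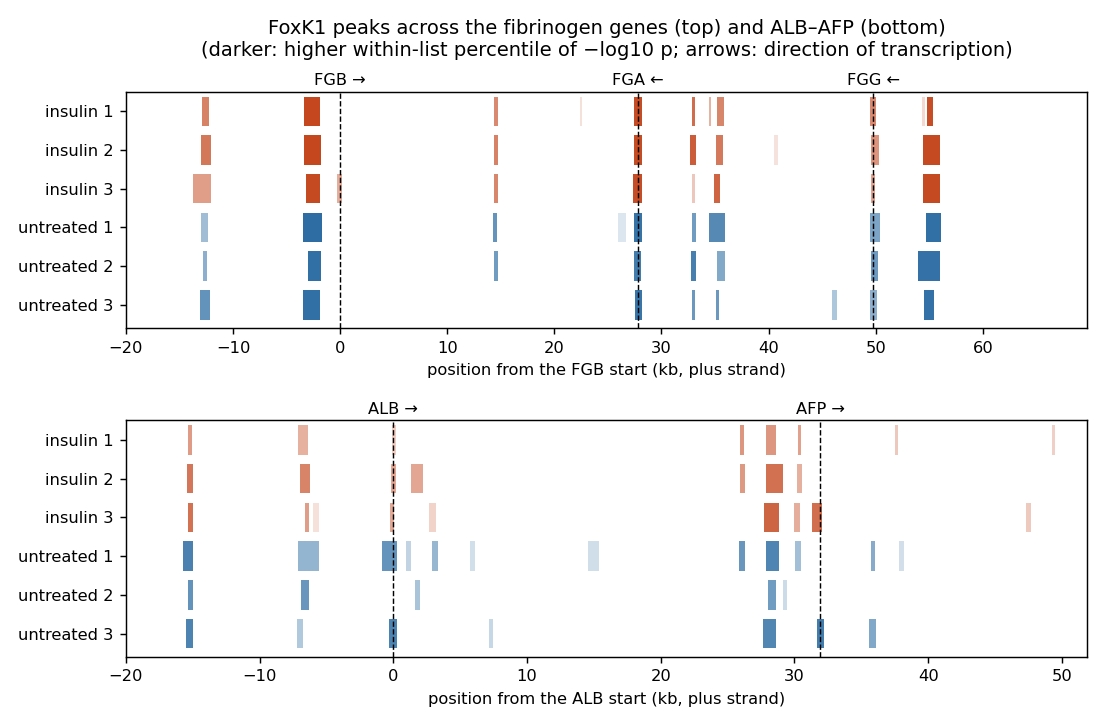
Peaks of each library across the fibrinogen genes (top) and ALB and AFP (bottom). The horizontal axis is the position from the FGB or ALB start in kb on the plus strand, each row is a library with insulin above untreated, bars are peaks to scale in width (with a minimum drawn width of 0.2 kb), and darker bars have a higher within-list percentile of −log10 p. Of 13 regions in the fibrinogen span 7 are in all 6 libraries, and of 18 in the ALB and AFP span 3 are, against 23.3% of all regions.

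The fibrinogen span ran from 20 kb before the FGB start to 20 kb beyond the FGG start. It held 13 regions, of which 7 were called in all 6 libraries, against 23.3% of all regions. A site 14.5 kb beyond the FGB start, between FGB and FGA, was called in 5 libraries at percentiles of 56.5 to 68.0 and not in untreated replicate 3. A site near 5165 bp upstream of FGA, also outside the limit, was in all 6 libraries with percentiles spread from 17.2 to 84.98.

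Among the carrier proteins, TF had the strongest peaks. TF encodes transferrin, the plasma iron carrier, with its start at chr3:133464977. Its upstream site, chr3:133460848-133462469, had summits 3314 to 3394 bp before the start. Percentiles were 97.5, 97.3 and 95.4 with insulin and 96.8, 96.5 and 84.6 without it. Folds were 25.5, 20.9 and 13.2 with insulin and 13.5, 11.8 and 7.27 without it, so untreated replicate 3 was lowest on both scales. A second TF site, chr3:133464620-133465535, stood 153 to 222 bp inside the gene. It reached percentiles of 79.6, 77.6 and 38.2 after insulin and 61.9, 64.8 and 48.7 without it. Among the regions called in all 6 libraries, which rank every library over one set, insulin replicate 3 was lowest of the insulin libraries and untreated replicate 1 of the untreated libraries. RefSeq lists 2 starts of TF that are 84395 bp apart.

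TTR encodes transthyretin, the carrier of thyroxine and of retinol-binding protein. Its site at the start (chr18:29171730) was chr18:29171201-29172155, with percentiles of 76.04, 80.5 and 79.7 with insulin and 81.0, 56.9 and 62.1 without it. A second site 4030 to 4149 bp upstream was called in 3 of 3 insulin and 2 of 3 untreated libraries, with folds of 6.94, 7.501 and 6.29 after insulin and 6.86 and 4.46 without it. Untreated replicate 3 lacked it.

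ALB, the gene for albumin and the most abundant plasma protein, had the lowest median percentile of the 10 over the 6 libraries. Its median was 36.5 in insulin libraries, the lowest of the 10 genes, and 68.3 in untreated libraries, above those of FGG (55.2), HP (60.2) and TTR (62.1). The libraries did not divide by treatment. In untreated replicate 2 the strongest ALB peak was at 29.7, the lowest gene there and below insulin replicates 2 (38.7) and 3 (36.5). In insulin replicate 3 HP was lower still, at 35.6. Its start is chr4:74269972. The site there, chr4:74269129-74270229, was called in 3 of 3 insulin and 2 of 3 untreated libraries. Percentiles were 13.2, 37.7 and 36.5 in insulin replicates 1, 2 and 3 and 68.3 and 81.8 in untreated replicates 1 and 3, while untreated replicate 2 had no peak there. The summits held 10, 22 and 17 fragments in the insulin libraries and 36 and 32 in those untreated libraries. Both quantities depend on the library's depth or list length, and the site was not among the regions called in all 6 libraries, so its strength was not compared between treatments. Untreated replicate 2 had its only ALB summit 1894 bp into the gene, at a site it shared with insulin replicate 2. The other two ALB sites were in 1 and 2 libraries.

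AFP encodes alpha-fetoprotein, the fetal counterpart of albumin that hepatocellular carcinomas often make again, and starts 31908 bp beyond the ALB start. Its site in all 6 libraries, chr4:74297642-74299381, lay 3480 to 3904 bp upstream. Percentiles were 48.6, 72.5 and 80.5 after insulin and 80.2, 61.1 and 78.9 without it. The AFP start (chr4:74301880) had a summit in insulin replicate 3, 7 bp inside the gene, and in untreated replicate 3, 12 bp upstream, and in no other library. These were not weak peaks, with percentiles of 74.0 in insulin replicate 3 and 86.4 in untreated replicate 3. A further AFP site 1538 to 1580 bp upstream was called in 3 of 3 insulin libraries and in untreated replicate 1. One 3992 to 4020 bp inside the gene was called in untreated replicates 1 and 3 only.

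The span from 20 kb before ALB to 20 kb beyond the AFP start held 18 regions. In all 6 libraries there were 3 of them, against 23.3% of all regions. Apart from the AFP upstream site, the 3 in all libraries stood 15238 and 6508 bp upstream of ALB by the median summit. Their percentiles ranged from 45.8 to 83.1 and from 25.3 to 66.0.

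SERPINA1 encodes alpha-1-antitrypsin, the plasma inhibitor of neutrophil elastase. It is known to be read in hepatocytes from a promoter that lies downstream of the one used in monocytes. The start used here (chr14:94857029, minus strand) had weak peaks in the insulin libraries only, and the strongest site of the window, chr14:94853472-94855513, had its main summit 1957 to 1975 bp inside the gene in all 6 libraries. Percentiles there were 93.7, 90.9 and 92.2 with insulin and 86.6, 88.1 and 95.6 without it. The main summits of the 6 libraries agreed to within 18 bp, the closest of the 12 sites. RefSeq lists 2 SERPINA1 starts, the second 2033 bp inside the first. The main summits of this site thus stood at a distance close to that of the second start, so the site may be one at a start. The builds differ, and the summits were not placed against the second start. The promoter of the second holds 1 forkhead word, TGTTTGC, 108 bases before that start, shown here in capitals with its surroundings (GRCh38.p14, chr14:94388695-94388719, minus strand), and that of the first holds none.
SERPINA1: cttagccccTGTTTGCtcctccgat

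At the SERPINA1 start used here, the site chr14:94856873-94857320 was called in 3 of 3 insulin libraries and in 0 of 3 untreated libraries. Its summits stood 122, 117 and 154 bp upstream, with folds of 4.54, 4.47 and 4.37, percentiles of 31.8, 34.9 and 34.1, and 21, 29 and 15 fragments in insulin replicates 1, 2 and 3. Of all 68127 regions, 0.376% were called in 3 of 3 insulin and 0 of 3 untreated libraries. No site of the 10 genes showed the reverse, which 0.0352% of all regions did. With 3 libraries a group, such a site has an exact permutation p of 0.1 at best, and here the peaks were in the weaker part of each list. The call was not kept when lists were cut to equal length or when a −log10 q of at least 5 was required, since under each of these settings at least 1 insulin library lost its peak. Without insulin replicate 2 a second SERPINA1 site met the same rule, and without untreated replicate 1 an AFP and an AHSG site did, which gave 2 and 3 sites. Without untreated replicate 2 an AFP site met the reverse rule, in every untreated and no insulin library. The share of all regions that met either rule with a library left out was not computed.

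Another SERPINA1 site, chr14:94859871-94863002, had its main summit 5325 to 5415 bp upstream in every library, outside the limit, and counted through weaker summits between 3427 and 4129 bp upstream in 4 libraries. Percentiles of the site's strongest peak were 93.1, 93.4 and 87.4 after insulin and 89.5, 86.4 and 69.0 without it.

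AHSG encodes fetuin-A, a plasma protein that inhibits calcification and binds the insulin receptor. Its start is chr3:186330850, and its start site, chr3:186329903-186331068, had summits 99 to 139 bp upstream. Percentiles were 93.1, 94.0 and 93.3 with insulin and 92.4, 88.4 and 89.7 without it. Here, as at the FGA start, all 3 insulin values were above the 3 untreated values. Lists of different length do not give comparable percentiles, however, and among regions called in every library the ranges overlapped at both sites. AHSG had 2 weaker recurrent sites. The one 4022 to 4053 bp upstream was in 3 of 3 insulin and 1 of 3 untreated libraries, and the one 1893 to 2003 bp inside the gene was in 3 of 3 and 2 of 3. Some calls of the site inside the gene were weak, with a −log10 q of 1.62 in insulin replicate 3 and 1.11 in untreated replicate 2.

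HP encodes haptoglobin, an acute-phase protein that binds free haemoglobin. Its window held a single site, at the start (chr16:72088508), chr16:72087953-72088675, with summits 112 to 152 bp upstream. Percentiles were 71.4, 63.2 and 35.6 after insulin and 75.5, 60.2 and 41.4 without it, lowest in replicate 3 of each treatment, as they were among regions called in all 6 libraries. The next gene in RefSeq is HPR, a close copy of HP, and the placing of reads that match both is unknown here.

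**Figure D3:**
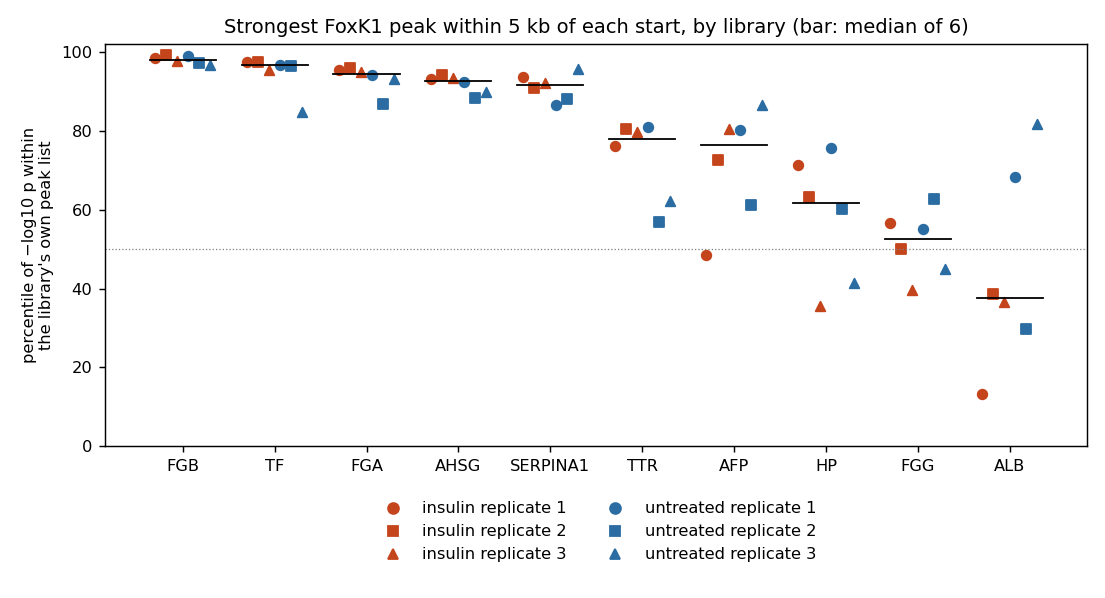
Percentile of −log10 p, within the library's own list, of the strongest peak whose summit is within 5 kb of each start. Genes run from the highest to the lowest median over 6 libraries (black bar), markers are libraries with insulin (red) left of untreated (blue), and the dotted line is the median peak. FGB, TF, FGA, AHSG and SERPINA1 lie at 84.6 or above in every library, and ALB spans 13.2 to 81.8.

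Ordered by the median percentile of their strongest peak, the genes ran FGB (98.1), TF (96.6), FGA (94.4), AHSG (92.7), SERPINA1 (91.6), TTR (77.9), AFP (76.3), HP (61.7), FGG (52.6) and ALB (37.6). The first 5 stayed at 84.6 or above in each of the 6 libraries. Between SERPINA1 (86.6 at its lowest) and TTR (81.04 at its highest) the ranges over libraries did not overlap, and between all other neighbours in this order they did. The place of FGG depends on the 5 kb limit, since the main summits of its upstream site (percentiles of 94.8 to 97.8) lay just outside it.

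Summits were densest in the windows themselves. The windows held 1.9, 2.1 and 2.1 summits per 10 kb in insulin replicates 1, 2 and 3 and 2.3, 1.7 and 1.5 in untreated replicates 1, 2 and 3. From 5 to 100 kb away, outside all windows, the same libraries held 0.709, 0.651 and 0.427 after insulin and 0.666, 0.478 and 0.384 without it. The whole of chromosomes 1 to 22 and X held 0.159, 0.148 and 0.0901 after insulin and 0.147, 0.104 and 0.0857 without it. Within 100 kb of the starts there were 51 regions called in all 6 libraries, and 12 of them were sites of the 10 genes.

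**Figure D4:**
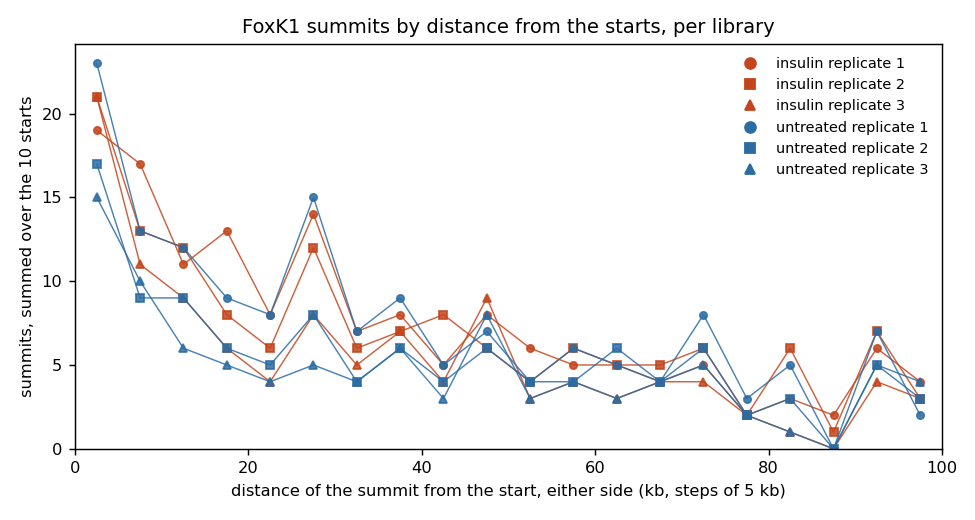
Summits by distance from the starts. The horizontal axis is the distance on either side in steps of 5 kb, the vertical axis is the number of summits summed over the 10 starts, and each line is a library (insulin red, untreated blue). The first step holds 15 to 23 summits per library, and since FGB, FGA and FGG, and ALB and AFP, are neighbours, the step from 25 to 30 kb (5 to 15) counts some of their sites again.

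The number of summits in the windows differed between treatments by less than the spread of the untreated libraries. There were 19, 21 and 21 in the insulin libraries and 23, 17 and 15 in the untreated libraries, a mean of 20.3 ± 1.15 and 18.3 ± 4.16 (SD, n = 3 each). The difference of 2 had a two-sided exact permutation p of 0.6, where 0.1 is the smallest that 3 against 3 allows. It was 4.33 without untreated replicate 1, 0.333 without untreated replicate 3 and 0 without replicate 3 in both treatments. All 10 genes had a summit in each library, so the number of genes gave a difference of 0 (two-sided exact permutation p = 1).

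For the strength of the 12 sites called in all libraries, each site was ranked by −log10 p among the 15887 regions called in all 6, which gives every library a list of one length. None of the 12 passed the limma test with Benjamini-Hochberg adjustment over all 15887 regions (lowest adjusted p = 0.999), and none had an unadjusted p under 0.05 (lowest 0.125). Over all regions 0% passed as higher after insulin and 0% as lower, and 649 had an unadjusted p under 0.05. Mean percentiles were higher after insulin at 8 sites and lower at 4, with a median difference of 3.32 percentile points over the 12 sites and 0.130 over all 15887 regions. All 12 differences, from -14.2 to 14.4, lay within the middle 90% of all regions (-17.1 to 16.3). The lowest, at the AFP upstream site, changed to -0.353 with insulin replicate 1 left out and to -29.5 with insulin replicate 3 left out. The range of all regions was not computed for these settings.

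The treatments did not overlap at 2 of the 12 sites, 1 in each direction. Of the 12, the SERPINA1 and FGG upstream sites were ranked by main summits that lay outside the 5 kb limit. All 3 insulin ranks were above all 3 untreated ranks at 4.66% of the 15887 regions, and below them at 4.32%. At the SERPINA1 upstream site the percentile among shared regions was 79.6, 81.5 and 78.4 after insulin and 71.4, 73.9 and 51.2 without it, a difference of 14.4 points (0.43 ± 0.25 on the normal-score scale, SE; limma adjusted p = 0.999; higher in 3 of 3). The difference was 6.37 points without untreated replicate 3 and 5.36 with replicates 1 and 2 only. At the FGG start site it was 14.4, 9.1 and 16.0 after insulin and 16.5, 37.7 and 21.7 without it, a difference of -12.1 points (-0.44 ± 0.26, SE; limma adjusted p = 0.999; lower in 3 of 3), and it was -6.02 without untreated replicate 2. The FGB upstream site was at 96.2 ± 1.05 after insulin and 95.3 ± 1.68 without it (SD, n = 3 each). The AFP upstream site had the largest SD of the 12 in each treatment, at 36.6 ± 29.1 after insulin and 50.8 ± 15.1 without it (SD, n = 3 each).

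Same-numbered libraries were taken as pairs, which the labels do not state and which was read from these data. Within them, 5 of the 12 sites had one sign in all 3 pairs. The insulin library was the higher in every pair at 3 sites, as it was at 14.6% of the 15887 regions, and the lower in every pair at 2, as at 13.7%. Besides the SERPINA1 upstream and FGG start sites, these were the start sites of FGA, AHSG and HP. The insulin-minus-untreated difference in pairs 1, 2 and 3 was 2.41, 13.98 and 2.03 points at FGA, 0.378, 5.69 and 5.21 points at AHSG, and -10.9, -13.9 and -5.51 points at HP. With the pairs as a block in limma none of the 12 passed (lowest adjusted p = 0.781).

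**Figure D5:**
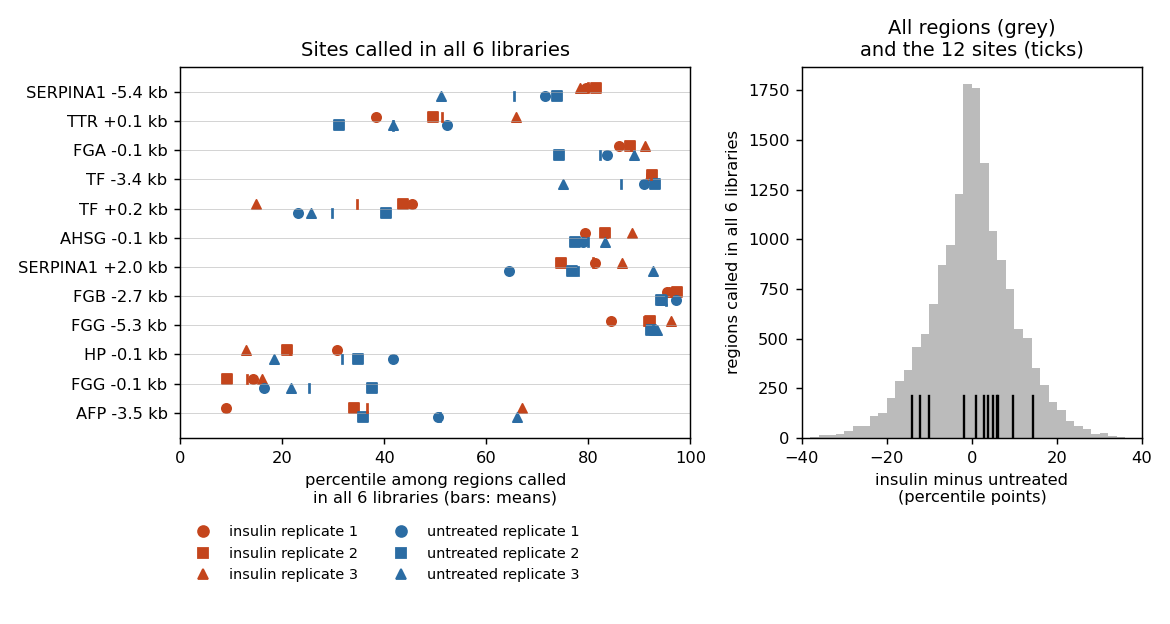
Left, percentile of −log10 p among the 15887 regions called in all 6 libraries for each of the 12 sites (labelled by gene and median summit distance), with insulin (red) above untreated (blue) and bars at the means of 3. Right, the insulin-minus-untreated difference in percentile points for all such regions (grey) and for the 12 sites (black ticks), which range from -14.2 to 14.4.

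Replicate 3 differed from replicates 1 and 2 in where some summits fell, in both treatments alike. At TTR the summit was 14 bp upstream in insulin replicate 3 and 17 bp upstream in untreated replicate 3, against 63 and 66 bp downstream in insulin replicates 1 and 2 and 45 and 70 bp downstream in untreated replicates 1 and 2. At ALB it was 85 bp upstream in insulin replicate 3 and 111 bp upstream in untreated replicate 3, against 54 and 36 bp downstream in insulin replicates 1 and 2 and 52 bp downstream in untreated replicate 1. At the AFP upstream site it was 3833 bp upstream in insulin replicate 3 and 3904 bp upstream in untreated replicate 3, against 3480 to 3551 bp in the other 4 libraries. At FGA and at the FGG upstream site the replicate 3 summits also fell outside the range of the others. The median of replicate 3 minus that of replicates 1 and 2 was -13.5 bp at FGA and 105.5 bp at the FGG site, in the direction of transcription. At the other 8 of 13 sites, those of TF, FGB, SERPINA1, AHSG and HP and the FGG start, they fell within or across that range. How often replicate 3 summits fell outside the range of the others over all regions was not computed. The AFP start was called in insulin replicate 3 and untreated replicate 3 alone. The replicate 3 lists were the shortest of each treatment, with 48208, 45057 and 27503 peaks in insulin replicates 1, 2 and 3 and 44687, 31668 and 26082 in untreated replicates 1, 2 and 3. Depth cannot be read from peak lists, and the part of list length in these positions was not tested.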

How the data were processed

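FoxK1 immunoprecipitates from 3 insulin-treated and 3 untreated HepG2 samples were analysed from 1 peak list each. fastp, Bowtie2, SAMtools and MACS2 are named, with build hg19, per the submitters' processing notes. The sources used here give no versions, control or threshold. The lowest −log10 p of each list lay between 3.002 and 3.005. Called peaks of the 10 genes reached down to a −log10 q of 0.788 (TTR, untreated replicate 3), so a call can be weak. The authors called peaks per library, as the peak names in the deposited lists show. The deposited ratio (fold) sets a summit over its local background, the deposited −log10 p and −log10 q are those of the summit, and the deposited score is about 10 times the −log10 p. Total read numbers are not given, so depth is unknown and no counting interval was made. The authors' fold and −log10 p were used within a list only.

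Members, gene list and tests were chosen with earlier results of these data known. Starts were those given with the list of 10 genes, all 10 are named, and TTR and HP were read on the plus strand from general knowledge. Peaks sharing at least 1 bp were merged into sites. Percentiles are mid-ranks of −log10 p. Ranks among regions called in all 6 libraries were turned into normal scores and tested with limma 3.58.1 (R 4.3.3), Benjamini-Hochberg adjusted over all 15887. Counts were compared by two-sided exact permutation over 20 assignments. Fragments and background were solved from fold = (fragments + 1)/(background + 1) and a Poisson upper tail, which gave a single whole number for 127 of 128 peaks (tolerance 0.0005 in −log10 p, in proportion above 10). Of these steps, the rank test and the merging of peaks were checked on simulated data. In the simulated rank test the libraries varied independently of one another.

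Same-numbered libraries deviated from their group together (correlations 0.110, 0.269 and 0.284, against -0.296 to 0.0897 for other pairs), so the numbers were taken as pairs and a replicate block was an alternative. The labels give replicate numbers only, so this pairing was read from the same data. The correlation of pair 1 (0.110) was little above the highest of the other pairs (0.0897). Deviations from a group's mean cancel out within the group, so higher correlations in some pairs come with lower ones in others. The contrast with the other pairs is thus partly built in and cannot establish the pairing. Other alternatives changed the window, threshold, list length, ranking, region rule and libraries. No hg19 annotation was at hand, so other plasma protein genes were not analysed here. Python 3.11.15, numpy 2.4.6, pandas 2.3.3, scipy 1.17.1 and matplotlib 3.10.9 were used.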

Additional observations from a re-analysis of the deposited data

How the results depend on the processing

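No setting gave a member site or any shared region an adjusted p under 0.05 in limma, and 0 was also the number with the replicate block (lowest member adjusted p 0.781). The block left the difference in summits at 2 (exact sign-flip p = 0.75) and changed no call. With lists of equal length the difference in summits was -0.333 (reversed, fewer peaks kept), and with each library left out it ran from 0.333 to 4.33. The insulin-minus-untreated number of genes with a summit was 1.67 within 1 kb, where 6 genes had one in all libraries, and -0.667 both with −log10 q of at least 5 and with equal lengths. In the last 2 settings ALB, and HP in the first of them, lacked a summit in some insulin libraries. Of 153 site values under alternatives, 5 changed direction. Not every site had a value in every setting. With regions made from summits within 100 bp, 10 of the 12 sites had one, without the AFP upstream and FGG start sites. With −log10 q of at least 5, 11 had one, without the HP site. The FGG upstream site was 0.108 ranked by fold, 0.144 ranked among all peaks and -3.98 to 1.41 with each library left out, the second TF site -0.441 to 15.1, and the SERPINA1 site inside the gene -3.89 to 9.10. The AFP upstream site kept its sign but ran from -29.5 to -0.353 with each library left out. The cause was not tested. The treatments separated at 2 of 12 shared sites by their ranges and at 5 within same-numbered pairs (the replicate block), a count added later. The number of sites in every insulin and no untreated library was 0 with −log10 q of at least 5 and with equal lengths, and 1 to 3 with each library left out (2 without insulin replicate 2, 3 without untreated replicate 1), and 1 site was in every untreated and no insulin library without untreated replicate 2. These settings were added after seeing the data, and a rule over 5 libraries is easier to pass than one over 6. The share of all regions that passed was not computed for them. Peak lists hold no depth, so a site that is not called is not shown to be unbound.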
